A study of Mus musculus with 18 samples.

Results

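The genes described here are 8 partners of the nuclear receptor system in the mouse brain: the corticosteroid receptors Nr3c1 and Nr3c2, the steroid receptor coactivators Ncoa1, Ncoa2 and Ncoa3, the acetyltransferases Ep300 and Crebbp, and the corepressor Ncor1. They were chosen by gene symbol, and every probe set that the array annotation assigns to one of these symbols and to no other was taken. For 7 of the 8 genes this gave 21 probe sets of the 45037 on the array that are not controls. Ncor1 was matched by no probe set of a single symbol in the annotation used here and was not analysed. The probe set with the highest mean over all arrays led for each gene.

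The samples were whole brains of 8-week-old C57BL/6 mice. The sample titles name the strain for the wild type arrays only. Wild type animals were compared with animals labelled ERalphaKO, a knockout of estrogen receptor alpha (gene Esr1), and with animals labelled ERbetaKO, a knockout of estrogen receptor beta (gene Esr2). Each genotype had 3 female and 3 male samples, so 18 Affymetrix arrays fell into 6 groups. The labels give no treatment and do not describe how either allele was made.

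Steroid receptors are transcription factors that a hormone switches on. Nr3c1, the glucocorticoid receptor, is found in most brain cells and responds to the high corticosteroid levels of stress, whereas Nr3c2, the mineralocorticoid receptor, binds corticosterone more tightly and is best known in hippocampal neurons. A receptor with bound hormone recruits Ncoa1, Ncoa2 or Ncoa3 through short leucine-rich motifs, and these bring in Ep300 or Crebbp, a pair of closely related histone acetyltransferases. Estrogen receptors draw on the same coactivators as the corticosteroid receptors. Ncor1 works in the opposite sense, holding histone deacetylases at receptors without hormone.

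Nothing in the labels says that the numbered samples of a group were separate animals, so a p-value speaks only of the spread among these samples, and the number of arrays limits the precision. Values are linear signals scaled by the authors to a common mean. Esr2 ran against its label: its only probe set gave 160 to 407 in ERbetaKO-labelled arrays and 19.8 to 50.8 in wild type arrays. The brightest Esr1 probe set gave 86.8 to 145 in ERalphaKO-labelled and 93.3 to 185 in wild type arrays, which do not separate. The other 2 Esr1 probe sets had higher means where the label was ERalphaKO: one gave 178 to 318 against 69.9 to 205 in wild type, and the other 41.5 to 86.8 against 10.2 to 55.5. Where these probe sets lie against the disruptions was not analysed here. Directions below therefore rest on the labels. Xist, expressed from the inactive X chromosome, was at least 3916 in the 9 female arrays and at most 449 in the 9 male arrays.

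All 7 neuronal markers examined passed the filter on low signals, as did 7 astrocyte, 5 of 6 oligodendrocyte, 6 microglial and 5 endothelial markers. The summed neuronal markers were 48041 to 62964 in ERalphaKO-labelled arrays, below the 63701 to 81958 of wild type, and 58672 to 77042 where the label was ERbetaKO. The summed astrocyte markers (34544 to 42900 against 43301 to 49797) and endothelial markers (2331 to 2777 against 2943 to 3474) of ERalphaKO-labelled arrays also lay wholly below wild type. Singly, limma called 2 of 7 neuronal, 1 of 7 astrocyte and 1 of 5 endothelial markers lower there, beside 6.7% of all genes called. The astrocyte filament gene Gfap fell in ERbetaKO-labelled brains by a log2 difference of -1.23 ± 0.14 (limma adjusted p = 0.000184). It was the only 1 of 7 astrocyte markers called there, and their median log2 difference was -0.27, beside 0.01 over all genes. Gfap stands outside the rule for naming given below and was named with its value known. Its call was not followed through the alternative fits. Markers of cerebellum and pituitary varied widely between arrays. The Purkinje cell gene Pcp2 was under 500 on 7 arrays, of which 3 carried the ERbetaKO label and 2 belonged to each other genotype. The summed signal of 8 cerebellar markers ran from 2790 to 63299 (median 23808) in wild type, from 3637 to 41270 (median 24341) in ERalphaKO-labelled arrays and from 2180 to 58029 (median 5851) in those labelled ERbetaKO. The summed pituitary markers ran from 745 to 35779 (median 5694) in wild type. They ran from 648 to 44338 (median 859) in ERalphaKO-labelled arrays and from 949 to 34302 (median 1069) in those labelled ERbetaKO. The pituitary hormone gene Gh was under 500 on 2 wild type arrays and on 5 arrays of each knockout group. The 3′ over 5′ ratio of the Actb control probe sets, a measure of RNA integrity, was 1.17 to 1.23 in wild type, 1.15 to 1.37 in ERalphaKO-labelled arrays and 1.34 to 1.84 in those labelled ERbetaKO. In such bulk tissue, fewer cells of a type and less RNA per cell cannot be told apart, and the part of these measures in the results was tested only where a covariate or a subset of arrays is named.

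Against wild type, none of the 7 measured genes passed the test at its leading probe set in either knockout group. Signals were compared as log2(signal + 63.63) with limma over the 13072 genes that passed the filter, and an adjusted p under 0.05 counted as a call. In the ERalphaKO-labelled comparison 0 of 7 were called by limma against a background of 6.7% of all genes. An unadjusted p under 0.05 was found for 2 of 7 (Ncoa3 and Ep300), beside 3044 of all 13072. In the ERbetaKO-labelled comparison 0 of 7 were called against 7.5%. There 0 of 7 had an unadjusted p under 0.05, beside 3320 of all 13072. Between the knockout groups 1 of 7, Ep300, was called against 15.4%, a share close to the background. At no leading probe set did the 6 values of one genotype lie clear of the 6 of another, whereas this held for 4.65%, 4.06% and 5.85% of all genes in the same order. The median log2 difference of the 7 genes was 0.06 in the ERalphaKO-labelled group and 0.03 in the ERbetaKO-labelled group, beside -0.03 and 0.01 over all genes tested.

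**Figure D1:**
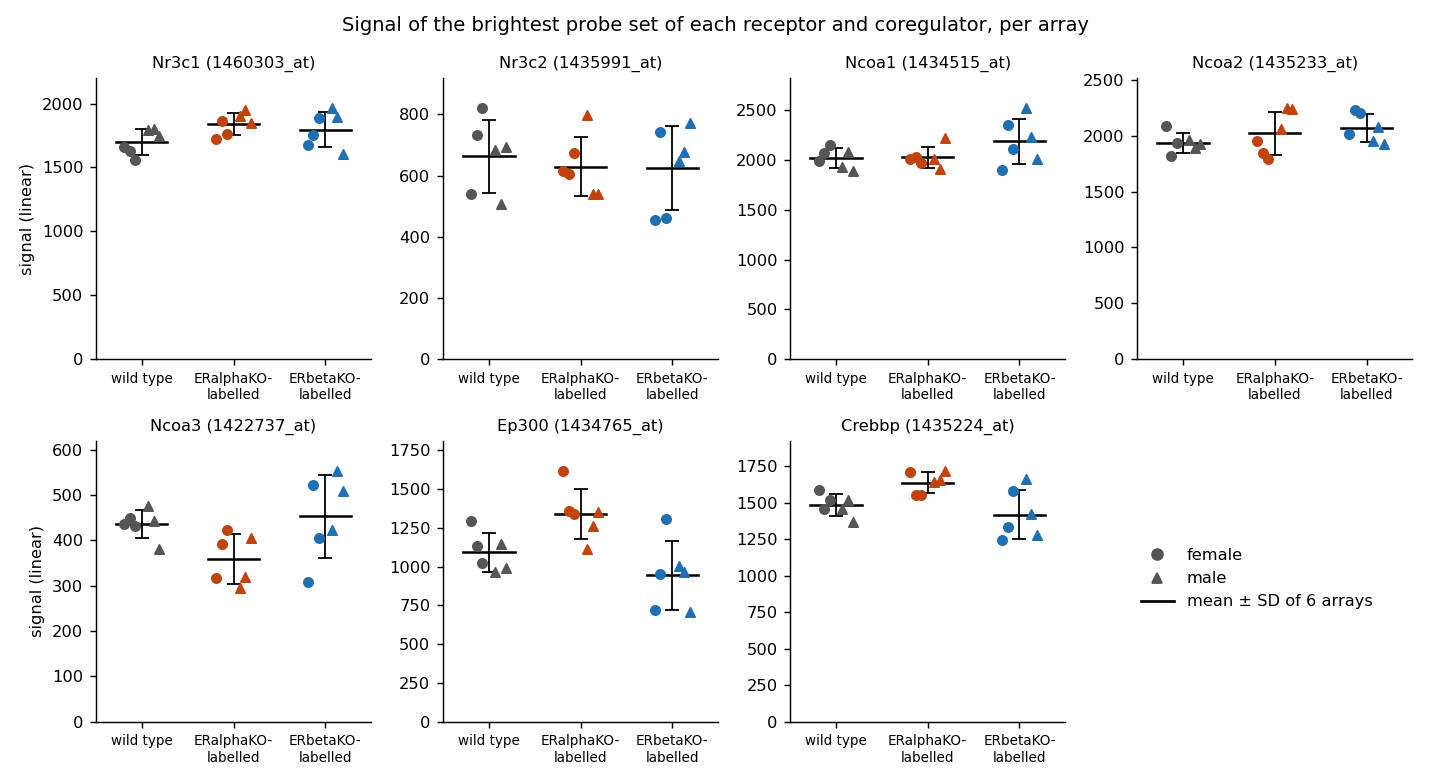
Signal of the leading probe set of each of the 7 measured genes on the 18 arrays (vertical axis linear, from 0; circles female, triangles male; black line and bar mean ± SD of 6 arrays). The genotypes overlap for every gene, and Ep300 shows the widest gap, with medians of 1344 in ERalphaKO-labelled arrays and 960.1 in those labelled ERbetaKO.

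The glucocorticoid receptor Nr3c1 was read by 6 probe sets, of which 5 passed the filter. At the leading probe set, 1460303_at, signals ran from 1555 to 1801 (median 1704) in wild type, from 1721 to 1954 (median 1855) in ERalphaKO-labelled arrays and from 1606 to 1962 (median 1819) in those labelled ERbetaKO. The groups overlap throughout. The log2 difference from wild type was 0.11 ± 0.06 (SE, limma adjusted p = 0.245) in the ERalphaKO-labelled group and 0.08 ± 0.06 (adjusted p = 0.424) in the ERbetaKO-labelled group. The 95% confidence intervals were -0.01 to 0.23 and -0.04 to 0.20. The order of the means, wild type at 1698 ± 99.4 (SD, n = 6), ERbetaKO-labelled at 1797 ± 140.2 and ERalphaKO-labelled at 1841 ± 86.0, is not resolved beyond these spreads.

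A dimmer Nr3c1 probe set, 1457635_s_at, was higher in both knockout groups. Its signal was 446 to 607 (median 517) in wild type, 576 to 763 (median 660.0) in ERalphaKO-labelled arrays and 587 to 778 (median 647) in those labelled ERbetaKO. Only the highest wild type value, that of male 1, reached into the range of either knockout group. The log2 differences were 0.33 ± 0.09 (limma adjusted p = 0.0346) and 0.32 ± 0.09 (adjusted p = 0.0402) over 27022 probe sets tested. The suffix marks probes that can match several transcripts, so what this probe set reads is less certain than for the leading one.

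Both calls sit near the threshold. In ERalphaKO-labelled brains the call was lost in 9 of 26 alternatives, with limma adjusted p = 0.0615 to 0.0929 without wild type female 1 or 3, wild type male 2 or 3, ERalphaKO-labelled female 2 or 3, or ERalphaKO-labelled male 1 or 2, each left out alone, and adjusted p = 0.139 on arrays of strong Pcp2 signal. In ERbetaKO-labelled brains it was lost in 13 of 26, with limma adjusted p = 0.0504 to 0.101 without wild type female 1 or 3, wild type male 2 or 3, ERalphaKO-labelled female 2 or male 1, ERbetaKO-labelled female 1 or 2, or ERbetaKO-labelled male 1 or 3. It was also lost with the Actb covariate (limma adjusted p = 0.227), on arrays of strong Pcp2 signal (0.180) and with a replicate block (0.0525). The differences themselves stayed between 0.28 and 0.34 with these arrays left out.

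The remaining Nr3c1 probe sets missed the threshold in every comparison. In ERbetaKO-labelled brains 1453860_s_at differed from wild type by 0.52 ± 0.16 (limma adjusted p = 0.0522) and 1421866_at by 0.48 ± 0.16 (adjusted p = 0.0782), with values of 0.28 ± 0.16 for both in ERalphaKO-labelled brains (adjusted p = 0.291 and 0.305). The signal of 1453860_s_at was 88.3 to 192 (median 141) in wild type and 118 to 301 (median 239) in ERbetaKO-labelled arrays, overlapping ranges. That of 1421866_at was 312 to 679 (median 563) and 545 to 843 (median 770), which also overlap. Female 3 and male 3 were the lowest wild type arrays at both probe sets. They gave 102 and 88.3 at 1453860_s_at and 339 and 312 at 1421866_at. With the cerebellar marker score as a covariate both probe sets passed in ERbetaKO-labelled brains, at 0.59 (adjusted p = 0.0184) and 0.56 (adjusted p = 0.0219). The second bright probe set, 1421867_at, differed by 0.03 ± 0.11 and 0.10 ± 0.11 (adjusted p = 0.894 and 0.580). When all probe sets of Nr3c1 were averaged, the ERbetaKO-labelled difference was 0.29 (adjusted p = 0.0474) and the ERalphaKO-labelled one 0.20 (adjusted p = 0.173). That average includes 1431378_at, which missed the filter.

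The mineralocorticoid receptor Nr3c2 had 1 probe set, 1435991_at. Its signal was 507 to 819.6 (median 688) in wild type, 539.6 to 798 (median 609.7) in ERalphaKO-labelled arrays and 455 to 772 (median 663) in those labelled ERbetaKO. These ranges lie almost on top of each other. The differences were -0.06 ± 0.13 (limma adjusted p = 0.818) and -0.08 ± 0.13 (adjusted p = 0.729), with intervals of -0.34 to 0.22 and -0.37 to 0.20. Females 1 and 3 of the ERbetaKO-labelled group, at 455 and 462, were the lowest of all 18 arrays. The hippocampus, the classical site of Nr3c2, was represented by 7 markers, of which 4 passed the filter, and their summed signal had medians of 1279, 1184 and 1052 in that same order of genotypes. Its part in the Nr3c2 values was not tested.

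Ncoa1, the first described steroid receptor coactivator and one of the partners of estrogen receptors in hypothalamus, was read at 1434515_at. Signals were 1889.8 to 2146 (median 2034) in wild type, 1910.1 to 2216 (median 2012) in ERalphaKO-labelled arrays and 1904 to 2517 (median 2173) in those labelled ERbetaKO. The ERbetaKO-labelled arrays spread most, and all groups overlap. The log2 difference was 0.01 ± 0.07 (limma adjusted p = 0.972, interval -0.13 to 0.15) in the ERalphaKO-labelled group and 0.11 ± 0.07 (adjusted p = 0.317, interval -0.03 to 0.25) in the ERbetaKO-labelled group. The other bright probe set, 1418594_a_at, gave 0.16 ± 0.06 (adjusted p = 0.114) and 0.07 ± 0.06 (adjusted p = 0.512).

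Ncoa2, a coactivator that also serves as a corepressor at some glucocorticoid receptor sites, had signals of 1816 to 2091 (median 1934) in wild type, 1794 to 2245 (median 2009) in ERalphaKO-labelled arrays and 1926 to 2236 (median 2047) in those labelled ERbetaKO at 1435233_at. The ranges overlap. The differences were 0.06 ± 0.05 (limma adjusted p = 0.567) and 0.09 ± 0.05 (adjusted p = 0.304), with intervals of -0.06 to 0.17 and -0.02 to 0.21. The dimmer probe sets of Ncoa2 lay further from wild type. At 1435234_at wild type arrays ran from 261 to 439 (median 394), ERalphaKO-labelled arrays from 389 to 591 (median 503) and ERbetaKO-labelled arrays from 433 to 626 (median 491). The differences were 0.30 ± 0.11 (adjusted p = 0.106) and 0.37 ± 0.11 (adjusted p = 0.0566).

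At 1450458_at the signals were 139 to 289.6 (median 232) in wild type, 256 to 344 (median 309) in ERalphaKO-labelled arrays and 227 to 365 (median 292) in those labelled ERbetaKO. Female 3 and male 3, at 178 and 139, were again the lowest wild type arrays. The differences were 0.40 ± 0.13 (limma adjusted p = 0.0599) and 0.38 ± 0.13 (adjusted p = 0.0759). Both dimmer probe sets thus missed the threshold in both comparisons. With the cerebellar score as a covariate, 1450458_at passed in ERalphaKO-labelled brains (0.39, adjusted p = 0.0367) and both passed in ERbetaKO-labelled brains (0.43, adjusted p = 0.0313, and 0.40, adjusted p = 0.0354). Relative to the leading probe set of Ncoa2 on the same array, neither differed from wild type after adjustment over 30 such ratios (exact permutation adjusted p = 0.110 to 0.162).

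Ncoa3, the coactivator best known as amplified in breast cancer, was lower in ERalphaKO-labelled arrays in the unadjusted test only. At 1422737_at wild type signals were 382 to 477 (median 439.9), ERalphaKO-labelled signals 295 to 424 (median 355) and ERbetaKO-labelled signals 308 to 553 (median 466). Of the 6 ERalphaKO-labelled values 3 lay below every wild type value. The difference from wild type was -0.25 ± 0.11 (limma adjusted p = 0.185) in the ERalphaKO-labelled group and 0.03 ± 0.11 (adjusted p = 0.896) in the ERbetaKO-labelled group. Between the knockout groups it was 0.28 ± 0.11 higher in ERbetaKO-labelled brains (adjusted p = 0.0947), which passed only without ERbetaKO-labelled female 1 (0.37, adjusted p = 0.0346).

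The second Ncoa3 probe set did not follow the first. At 1448027_at the differences were 0.01 ± 0.12 (limma adjusted p = 0.964) in the ERalphaKO-labelled group and -0.18 ± 0.12 (adjusted p = 0.376) in the ERbetaKO-labelled group. Its ratio to the leading probe set on the same array was 0.499 to 0.905 (median 0.743) in ERalphaKO-labelled arrays and 0.458 to 0.544 (median 0.485) in those labelled ERbetaKO. This difference had an exact permutation p of 0.00649, two-sided with n = 6 against 6, and 0.0649 after adjustment over the 30 ratios. The 2 readings of Ncoa3 therefore give no single order of the genotypes.

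Ep300, an acetyltransferase that opens chromatin at active enhancers, was the only gene of the 7 called at its leading probe set. Its single probe set, 1434765_at, gave 963 to 1291 (median 1078) in wild type, 1112 to 1614 (median 1344) in ERalphaKO-labelled arrays and 706 to 1307 (median 960.1) in those labelled ERbetaKO. In ERbetaKO-labelled arrays 5 values lay below all 6 ERalphaKO-labelled ones, while female 3, at 1307, lay among them. Expression was lower in ERbetaKO-labelled than in ERalphaKO-labelled brains by a log2 difference of -0.50 ± 0.12 (limma adjusted p = 0.0147, a fold of 0.708). Wild type lay between, and neither knockout group differed from it past the threshold: 0.28 ± 0.12 (adjusted p = 0.173) in the ERalphaKO-labelled group and -0.22 ± 0.12 (adjusted p = 0.273) in the ERbetaKO-labelled group.

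The Ep300 difference held when any array was left out, with values of -0.60 to -0.40 and adjusted p = 0.00457 to 0.0400. On the 11 arrays with a Pcp2 signal of at least 500 it was -0.73 (limma adjusted p = 0.0147), although only 1 ERbetaKO-labelled female remained there. With the Actb ratio in the fit it was -0.48 and the call was lost (adjusted p = 0.107).

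Crebbp, the close relative of Ep300 named for binding the cyclic AMP response factor, was read at 1435224_at with signals of 1369.8 to 1584 (median 1487) in wild type, 1553 to 1715 (median 1646) in ERalphaKO-labelled arrays and 1242 to 1662 (median 1376) in those labelled ERbetaKO. ERalphaKO-labelled values sat mostly above the wild type ones, and ERbetaKO-labelled values spread over both. The differences from wild type were 0.14 ± 0.07 (limma adjusted p = 0.258) and -0.07 ± 0.07 (adjusted p = 0.580). Between the knockout groups it was -0.21 ± 0.07 (adjusted p = 0.0584), in the same direction as Ep300 but short of the threshold. It passed without ERbetaKO-labelled female 3 (-0.25, adjusted p = 0.0265) or male 1 (-0.25, adjusted p = 0.0273), on arrays of strong Pcp2 signal (-0.33, adjusted p = 0.0423) and once the cerebellar score was a covariate (-0.22, adjusted p = 0.0421).

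A dimmer Crebbp probe set, 1436983_at, fell in ERbetaKO-labelled brains while the other 2 that passed the filter were not called. Its signal was 617 to 916 (median 721) in wild type, 669.9 to 939 (median 759) in ERalphaKO-labelled arrays and 241 to 548 (median 352) in those labelled ERbetaKO. All 6 ERbetaKO-labelled values lay below all 12 others. The log2 difference was -0.91 ± 0.12 against wild type (limma adjusted p = 0.000523, a fold of 0.533) and -1.01 ± 0.12 against ERalphaKO-labelled brains (adjusted p = 0.000206), and 0.10 ± 0.12 between ERalphaKO-labelled and wild type brains (adjusted p = 0.638). At 1434633_at, in contrast, signals were 756 to 942 (median 824) in wild type and 706 to 1007 (median 792) in ERbetaKO-labelled arrays, a difference of -0.01 ± 0.09 (adjusted p = 0.938).

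**Figure D2:**
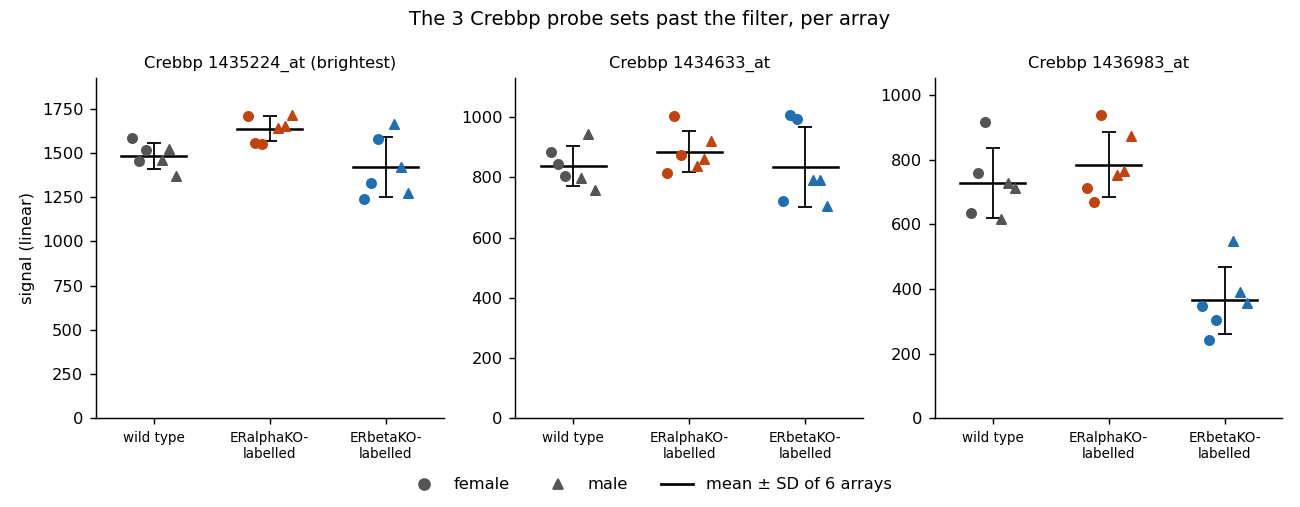
Signal of the 3 Crebbp probe sets that passed the filter on each array (vertical axes linear, from 0; circles female, triangles male; black line and bar mean ± SD of 6 arrays). The ERbetaKO-labelled arrays lie apart from all others at 1436983_at, at 241 to 548, and overlap with wild type at 1435224_at and 1434633_at.

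The gap showed within arrays too. The signal of 1436983_at over that of 1435224_at on the same array was 0.401 to 0.604 (median 0.500) in wild type, 0.416 to 0.605 (median 0.461) in ERalphaKO-labelled arrays and 0.181 to 0.330 (median 0.277) in those labelled ERbetaKO. The ERbetaKO-labelled ratios lay below all others. The two-sided exact permutation p was 0.00216 against either group, the smallest that 6 against 6 arrays allow, and 0.0325 after adjustment over 30 ratios. This probe set of Crebbp was singled out with its values known, and the ratio reuses the same signals, so it is no independent reading. Within the ERbetaKO-labelled group the females, at 241, 304 and 348, lay below the males, at 356, 391 and 548, and the interaction with sex was -0.59 ± 0.24 (limma unadjusted p = 0.0229, adjusted p = 1.00).

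The fall against ERalphaKO-labelled brains kept its call in 26 of 26 alternatives and that against wild type in 25 of 26. With the Actb ratio in the fit the difference from wild type was -0.65 and no longer called (limma adjusted p = 0.108). The positions of the 3 probe sets in the transcript were not analysed here. Averaged over its probe sets, Crebbp was called in both comparisons, at -0.30 against wild type (adjusted p = 0.0309) and -0.42 against ERalphaKO-labelled brains (adjusted p = 0.00523). That mean includes 1436983_at and also 1459804_at, which missed the filter.

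The promoters of Ep300 and Crebbp are shown because, of the genes with a window in the RefSeq table, these had a probe set called between genotypes. Both sequences are the 250 bases before the annotated start, from RefSeq on GRCm38.p6, Ep300 at chr15:81585964-81586213 on the plus strand and Crebbp at chr16:4213405-4213654 on the minus strand. Capitals mark GC boxes, the letters GGGCGG read on either strand, which the transcription factor SP1 is known to bind.
Ep300: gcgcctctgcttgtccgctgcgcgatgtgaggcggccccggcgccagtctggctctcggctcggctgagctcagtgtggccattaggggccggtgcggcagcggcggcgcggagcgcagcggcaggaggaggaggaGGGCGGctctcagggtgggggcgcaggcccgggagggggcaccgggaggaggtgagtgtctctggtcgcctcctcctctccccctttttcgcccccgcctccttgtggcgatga
Crebbp: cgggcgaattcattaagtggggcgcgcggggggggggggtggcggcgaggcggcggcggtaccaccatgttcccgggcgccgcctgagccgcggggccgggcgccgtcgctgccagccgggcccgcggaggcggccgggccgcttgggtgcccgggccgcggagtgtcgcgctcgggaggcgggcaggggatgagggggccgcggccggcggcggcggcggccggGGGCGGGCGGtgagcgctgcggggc
The Ep300 window holds 1 GC box and the Crebbp window 2, which overlap. Their GC content is 73.2% and 84.0%, against a median of 52.4% over 32851 promoters.

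A search of both strands of windows of 250 bases before the start compared these promoters with all others in the RefSeq table. The table held 5 of the 8 genes in 6 windows, and Nr3c1, Ncoa2 and Ncoa3 were not matched. GC boxes were found in Ncoa1 (7), Nr3c2 (3), Crebbp (2), Ep300 (1) and in 1 of the 2 Ncor1 windows (2), and in 32.74% of all promoters. The CCAAT box was found in Nr3c2 (3) and in 33.85% of all promoters. None of the 6 windows held the letters of the palindromic estrogen response element (0.06% of all promoters), the glucocorticoid response element (0.01%), the full cyclic AMP response element TGACGTCA (1.55%), its core TGACG (17.77%) or TATAAA (12.37%). A match or its absence describes only the letters in these windows.

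Over all 17 probe sets that passed the filter, few were called. In the ERalphaKO-labelled comparison 1 of 17 was called by limma, against 9.07% of all probe sets, and in the ERbetaKO-labelled comparison 2 of 17 were called, against 7.82%. Between the knockout groups 2 of 17, those of Ep300 and Crebbp 1436983_at, were called against 15.4%. These shares are near the background. The difference from wild type was positive for 15 of 17 probe sets in the ERalphaKO-labelled group and for 11 of 17 in the ERbetaKO-labelled group. The positive share over all probe sets is not given here, so these 2 counts have no background beside them. The median difference over all genes, at their brightest probe sets, was -0.03 and 0.01. The comparisons share the wild type arrays and the probe sets of a gene share its transcripts, so the counts are not independent readings.

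**Figure D3:**
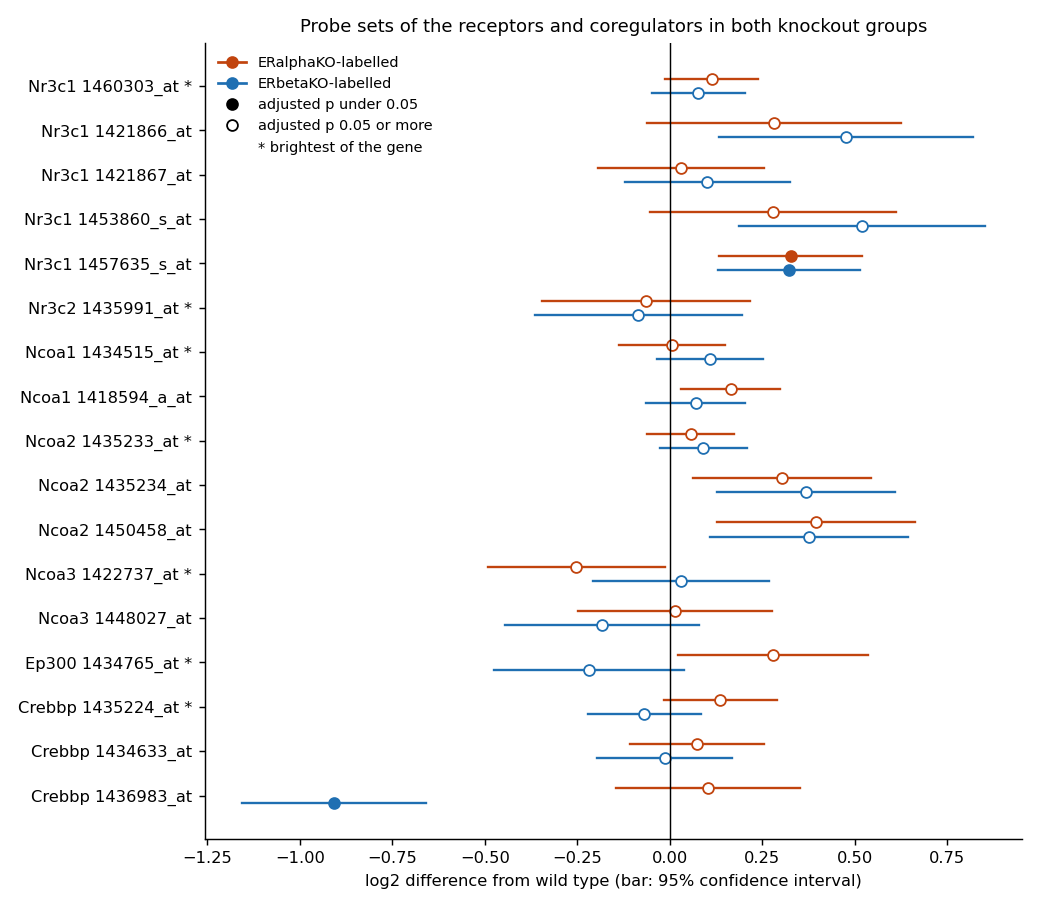
Log2 difference from wild type of the 17 probe sets that passed the filter, with 95% confidence intervals, in ERalphaKO-labelled (orange) and ERbetaKO-labelled (blue) brains; filled points have an adjusted p under 0.05 and asterisks mark the leading probe set of each gene. Crebbp 1436983_at stands apart at -0.91 in ERbetaKO-labelled brains, and Nr3c1 1457635_s_at is filled in both groups, at 0.33 and 0.32.

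The 4 probe sets that missed the filter were Nr3c1 1431378_at, Ncoa1 1443397_at, Ncoa2 1446827_at and Crebbp 1459804_at. Their signals reached at most 159, 158, 144 and 62.4 and were left out of the main tests. The sharpest contrast between probe sets of a gene was in Crebbp, but Nr3c1 and Ncoa2 also had leading probe sets that varied little between the 18 arrays, with coefficients of variation of 6.81% and 7.29%. Their other probe sets past the filter varied by 12.2% to 31.9% and by 18.7% to 21.5%.

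No gene differed between females and males past the threshold. With limma 0 of 7 were called against a background of 0.0306% of all genes. An unadjusted p under 0.05 was found for 0 of 7, beside 597 of all 13072. Nr3c1 was the nearest, lower in females by a log2 difference of -0.09 ± 0.05 (unadjusted p = 0.0813, adjusted p = 0.974). In wild type it was 1614 ± 54.1 (SD, n = 3) in females and 1781 ± 29.6 in males, in ERalphaKO-labelled brains 1783 ± 73.3 and 1899.6 ± 54.1, and in ERbetaKO-labelled brains 1773 ± 107 and 1821 ± 189.6. Females were lower in each genotype, by more than the spread in wild type and within it in ERbetaKO-labelled brains.

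The effect of genotype did not differ between the sexes past the threshold. For the interaction of ERalphaKO with sex limma called 0 of 7 genes against a background of 0%, and 1 of 7 had an unadjusted p under 0.05, beside 673 of all 13072. That gene was Ncoa2, with a difference from wild type of -0.06 ± 0.08 in females and 0.17 ± 0.08 in males (interaction -0.23 ± 0.11, unadjusted p = 0.0449, adjusted p = 0.950). The ERalphaKO-labelled females gave 1794, 1845 and 1954 and the males 2064, 2241 and 2245 at its leading probe set, with no overlap. For the interaction of ERbetaKO with sex limma called 0 of 7 against 0%, with 0 of 7 at an unadjusted p under 0.05, beside 442 of all genes. Nr3c2 was the nearest, at -0.32 ± 0.19 in females and 0.15 ± 0.19 in males (interaction -0.47 ± 0.27, unadjusted p = 0.0967, adjusted p = 1.00).

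Genes that followed each receptor or coregulator most closely over the 18 arrays were found by Pearson correlation of log2 values among all genes tested. Ep300 was followed by Nav2 (r = 0.859) and Ikbkb (r = 0.857), and Crebbp by Nav2 (r = 0.845) and Agpat3 (r = 0.819). Nav2, a protein of growing axons, thus headed both lists. Nr3c2 was followed by Smim10l2a (r = 0.809) and by Fibcd1 (r = 0.807), one of the hippocampal markers examined. Nr3c1 was followed by Hecw2 (r = 0.828) and Fgf14 (r = 0.778), Ncoa1 by Rab3ip (r = 0.827) and Ttl (r = 0.817), Ncoa2 by Kmt2a (r = 0.777) and Nipa2 (r = 0.752), and Ncoa3 by Zc3hav1l (r = 0.800) and Tspan14 (r = 0.799). The arrays share genotype, tissue make-up and RNA quality, so these values describe the arrays.

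Few other coactivators of nuclear receptors passed the test, in ERalphaKO-labelled brains at a share near that of all genes. Of 32 tested, 1 rose and 1 fell in ERalphaKO-labelled brains (6.7% of all genes were called there) and 0 rose and 1 fell in ERbetaKO-labelled brains (7.5% of all genes), with medians of 0.07 and -0.03 beside -0.03 and 0.01 over all genes. Rbm39, a splicing protein that also coactivates steroid receptors, rose by 0.37 ± 0.06 (limma adjusted p = 0.00190), from 1672 ± 133 (SD, n = 6) to 2178 ± 186, and missed the threshold with its probe sets averaged (0.26, adjusted p = 0.0842). Pelp1, a scaffold for estrogen receptor signalling, fell in ERalphaKO-labelled brains (-0.25 ± 0.06, adjusted p = 0.0228), a call lost without wild type female 1 (adjusted p = 0.0543), wild type male 3 (0.0589) or ERalphaKO-labelled male 2 (0.0599) and with its probe sets averaged (-0.20, 0.0983). Kat5, an acetyltransferase, fell in ERbetaKO-labelled brains (-0.30 ± 0.07, adjusted p = 0.0240). That call was lost without wild type female 2 (adjusted p = 0.0519), wild type female 3 (0.0501), wild type male 2 (0.0583) or ERbetaKO-labelled male 1 (0.0652), and with only the 2 genotypes in the fit (0.0636), where 0 of the 32 coactivators were called.

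Of 19 corepressors tested, 2 rose and 1 fell in ERalphaKO-labelled brains, beside 6.7% of all genes called, and 0 rose and 1 fell in ERbetaKO-labelled brains, beside 7.5%, with medians of 0.00 and -0.01. Sin3b, a scaffold that carries histone deacetylases, fell in both, by a log2 difference of -0.39 ± 0.07 (limma adjusted p = 0.00348) and -0.27 ± 0.07 (adjusted p = 0.0218). Its signal was 1392 ± 134 in wild type, 1041 ± 35.7 in ERalphaKO-labelled arrays and 1141 ± 85.6 in those labelled ERbetaKO, and both knockout groups lay clear of wild type. Averaged over its probe sets, the Sin3b differences were -0.17 and -0.05 and neither was called (adjusted p = 0.108 and 0.637), and the ERbetaKO-labelled call was also lost without ERbetaKO-labelled male 1 (adjusted p = 0.0582) and with only the 2 genotypes in the fit (0.0588).

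Lcor, a corepressor that binds receptors carrying hormone, rose in ERalphaKO-labelled brains by 0.44 ± 0.09 (limma adjusted p = 0.0107), from 508 ± 53.4 to 714 ± 63.7. Rcor1, which links the repressor REST to chromatin enzymes, rose by 0.31 ± 0.08 (adjusted p = 0.0249). The Rcor1 call was lost without wild type female 3 or male 3 and without ERalphaKO-labelled female 3, male 1 or male 2 (adjusted p = 0.0555 to 0.0709), and at 0.14 with all its probe sets averaged (adjusted p = 0.362).

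Among 11 chaperones that hold steroid receptors ready for hormone, 1 rose and 0 fell in ERalphaKO-labelled brains, beside 6.7% of all genes called, and 1 rose and 1 fell in ERbetaKO-labelled brains, beside 7.5%, with medians of -0.07 and -0.09. Dnajb1, a heat shock protein that loads clients onto Hsp70 chaperones, rose in both, from 1317 ± 190.0 to 1947 ± 119.9 and 1899.8 ± 256, by 0.55 ± 0.10 (limma adjusted p = 0.00583) and 0.51 ± 0.10 (adjusted p = 0.00796). Stub1, the ubiquitin ligase that marks chaperone clients for breakdown, fell in ERbetaKO-labelled brains by a log2 difference of -0.26 ± 0.06 (adjusted p = 0.0174). With all its probe sets averaged, Stub1 was at -0.07 and not called (adjusted p = 0.650). With the Actb ratio in the fit neither Dnajb1 nor Stub1 was called in ERbetaKO-labelled brains (0.33, adjusted p = 0.371, and -0.38, adjusted p = 0.0900).

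The progesterone receptor and the genes of corticosteroid access missed the threshold. Pgr, the progesterone receptor gene and a classical estrogen target, differed by 0.08 ± 0.11 (limma adjusted p = 0.717) and 0.21 ± 0.11 (adjusted p = 0.257), and it passed in ERbetaKO-labelled brains only without ERbetaKO-labelled female 1 (0.33, adjusted p = 0.0339). Of 5 genes that admit or convert corticosteroids, 2 passed the filter and 0 were called in either comparison. Hsd11b1, which regenerates active corticosteroid inside cells, differed by 0.00 ± 0.27 and -0.12 ± 0.27 (adjusted p = 0.999 and 0.827). The drug transporter Abcb1a differed by -0.02 ± 0.09 and -0.11 ± 0.09 (adjusted p = 0.912 and 0.486).

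Several genes known to respond to corticosteroids rose in both knockout groups. Of 15 tested, 5 rose and 1 fell in ERalphaKO-labelled brains, beside 6.7% of all genes called, and 3 rose and 1 fell in ERbetaKO-labelled brains, beside 7.5%. Their medians were 0.20 and 0.19, beside -0.03 and 0.01 over all genes. Dusp1, a phosphatase of MAP kinases, rose from 882 ± 161 to 2051 ± 362 and 1942 ± 241, by 1.16 ± 0.10 (limma adjusted p = 1.50e-05) and 1.10 ± 0.10 (adjusted p = 3.22e-05). Ddit4, an inhibitor of the growth kinase mTOR, rose by 0.63 ± 0.10 (adjusted p = 0.00216) and 0.61 ± 0.10 (adjusted p = 0.00256). Sgk1, a kinase named for serum and glucocorticoid induction, rose from 2178 ± 857 to 3971 ± 682 and 3870.2 ± 779, by 0.91 ± 0.17 (adjusted p = 0.00620) and 0.87 ± 0.17 (adjusted p = 0.00699). The clock gene Per1 rose in ERalphaKO-labelled brains by 0.35 ± 0.08 (adjusted p = 0.0228), a call lost without ERalphaKO-labelled female 2 (adjusted p = 0.0553). In ERbetaKO-labelled brains it differed by 0.18 ± 0.08 (adjusted p = 0.197).

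The metallothionein Mt1, a metal-binding protein, fell in ERbetaKO-labelled brains by a log2 difference of -0.42 ± 0.09 (limma adjusted p = 0.0164). With all its probe sets averaged it was at -0.10 and not called (adjusted p = 0.615). Errfi1, an inhibitor of the epidermal growth factor receptor, rose by 0.48 ± 0.12 (adjusted p = 0.0281) and Mt1 fell by 0.36 ± 0.09 (adjusted p = 0.0328) in ERalphaKO-labelled brains; both stand outside the rule for naming and were added after their values were seen. So were Fkbp5 and Tsc22d3, textbook targets of Nr3c1, which differed by 0.24 ± 0.14 and 0.20 ± 0.13 (adjusted p = 0.320 and 0.364) in the ERalphaKO-labelled group and by 0.05 ± 0.14 and 0.04 ± 0.13 (adjusted p = 0.862 and 0.873) in the ERbetaKO-labelled group. Fkbp5 also counts among the chaperones. Dusp1, Sgk1, Per1 and Errfi1 are known to respond to growth factors or neuronal activity as well as to corticosteroids.

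**Figure D4:**
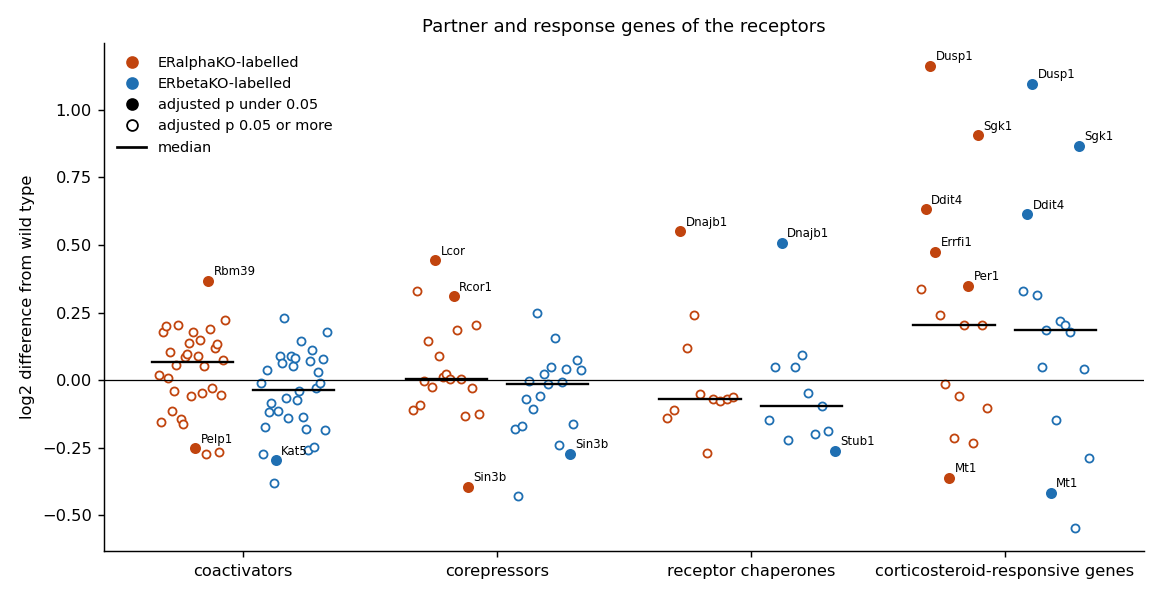
Log2 difference from wild type of every tested gene of the 4 larger partner and response lists, in ERalphaKO-labelled (orange) and ERbetaKO-labelled (blue) brains; filled, named points have an adjusted p under 0.05 and black lines are medians. Most coactivators, corepressors and chaperones are open points near 0, while Dusp1, Sgk1 and Ddit4 lie between 0.61 and 1.16 in both groups.

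These counts moved with tissue and RNA measures, but not every lost call had a smaller log2 difference. On the fewer arrays of strong Pcp2 signal, Lcor was at 0.47 (0.44 over all arrays) and Sin3b at -0.34 (-0.39) in ERalphaKO-labelled brains. In ERbetaKO-labelled brains the Actb covariate gave Kat5 -0.38 ± 0.13, beside -0.30 ± 0.07 without it. Sgk1 was at 0.53 ± 0.28 there, beside 0.87 ± 0.17. Wild type and ERbetaKO-labelled Actb ratios did not overlap, so that fit cannot cleanly separate label from ratio. With the Actb ratio in the fit, the corticosteroid-responsive genes called fell from 6 to 3 in the ERalphaKO-labelled group and from 4 to 1 in the ERbetaKO-labelled group, and on arrays of strong Pcp2 signal to 2 and 2. Dusp1 kept its call in all 30 alternatives in both comparisons (highest limma adjusted p = 0.00122 and 0.00317). Ddit4 kept it in all 30 in ERalphaKO-labelled brains and lost it in ERbetaKO-labelled brains with the Actb covariate (0.66, adjusted p = 0.0880). Of the 10 genes of these lists named as called in ERalphaKO-labelled brains under the rule for naming, Pelp1, Rcor1 and Per1 lost the call with the Actb covariate, and these 3, Sin3b, Lcor and Sgk1 lost it on arrays of strong Pcp2 signal. Of the 8 named in ERbetaKO-labelled brains, only Dusp1 kept the call with the Actb covariate, and only Dusp1 and Ddit4 kept it on arrays of strong Pcp2 signal.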

How the data were processed

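Whole-brain RNA of 18 samples (6 groups of 3) was hybridised to Affymetrix mouse arrays. The authors deposited 1 linear intensity per probe set and array, summarised with MAS5 per the submitters' processing notes; the values show a 2% trimmed mean of 500 on every array, so levels are relative to the array's average. A global scaling of this kind hides any change shared by most probes. Of 45101 probe sets, 64 controls were left out, 34945 had 1 gene symbol in the platform annotation, 932 several and 9160 none; only the first were named.

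Intensities were taken as log2(signal + 63.63), the pseudocount being their 25th percentile. The brightest probe set stood for each gene. The filter was 7.58, the 40th percentile of mean log2 signal over all probe sets without controls. Genes whose brightest probe set lay below it were dropped, leaving 13072 of 18193. limma 3.58.1 in R 4.3.3 fitted 6 group means to all 18 arrays with an intensity trend (12 residual degrees of freedom); genotype differences are the mean of the female and male differences, and p-values were adjusted over all features tested (Benjamini-Hochberg, 0.05). Every probe set past the filter (27022) was fitted the same way. Ratios within arrays used two-sided exact permutation tests, adjusted over 30. scipy 1.17.1 and matplotlib 3.10.9 on Python 3.11.15 were used, and the fit was tested on simulated data.

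The genes, lists and tests were chosen with earlier results of these data known. Named from each list were up to 4 genes past the threshold with the smallest adjusted p in each comparison with wild type, or, failing any, the 2 lowest in p, and for each receptor or coregulator the 2 most correlated genes. Alternatives were another pseudocount, quantile normalization, other filters, the mean of all probe sets of a gene, no trend, only the genotypes compared, a replicate block, the cerebellar score or the Actb ratio as a covariate, only arrays with a Pcp2 signal of at least 500, and each array left out; those on single probe sets, lists and list genes were added after seeing the data. As deviations from their group means, same-numbered samples of different groups correlated from -0.486 to 0.487 (14 of 45 pairs over 0.1), so the numbers were not taken to pair samples.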

Additional observations from a re-analysis of the deposited data

Results flagged for a closer look

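Among 51 sets of 6 values (17 probe sets in 3 genotypes), 2 held a value far from the other 5 by Dixon's test, and chance gives about 1 in 20. At Ncoa1 1418594_a_at, ERalphaKO-labelled female 3 gave 1759.6 while the others lay between 1916 and 2003. At Ncoa2 1435234_at, wild type female 3 gave 261 while the others lay between 377 and 439.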

How the results depend on the processing

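Each difference of the 7 genes was computed under 30 alternatives (29 for sex). Genes called over all genes tested went from 876 (ERalphaKO against wild type) to 1475 with the cerebellar score as a covariate, 423 with the Actb ratio and 75 on the 11 arrays with strong Pcp2; from 980 (ERbetaKO against wild type) to 122 with the Actb ratio and 235 with strong Pcp2; from 2010 (between the knockouts) to 756 with the Actb ratio; and from 4 (sex) to 2 with the 60th percentile filter, averaged probe sets or strong Pcp2. With 1 array left out the first 3 counts ran from 396 to 1082, 500 to 1068 and 1183 to 2248. Of the 7 genes, 0 became 2 in ERbetaKO against wild type with averaged probe sets; the 1 between the knockouts became 2 with averaged probe sets, the cerebellar score or strong Pcp2, 0 with the Actb ratio, and 1 to 2 with 1 array left out. Of the 17 probe sets, the 1 called in ERalphaKO against wild type became 2 with the cerebellar score, 0 with strong Pcp2 and 0 to 2 with 1 array left out; the 2 in ERbetaKO against wild type became 1 with no filter, only those genotypes or strong Pcp2, 6 with the cerebellar score, 0 with the Actb ratio and 1 to 3 with 1 array left out; the 2 between the knockouts became 1 with the Actb ratio.

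Signs turned only where a log2 difference was not called, and the cause was not tested. In ERalphaKO against wild type, strong Pcp2 gave Nr3c2 0.0878, Ncoa1 -0.0277, Abcb1a 0.0698 and Hsd11b1 -0.0216; the Actb ratio Ncoa1 -0.0173 and Pgr -0.0131; averaged probe sets Abcb1a 0.0155; quantile normalization Hsd11b1 -0.0303; the cerebellar score Hsd11b1 -0.019. In ERbetaKO against wild type, strong Pcp2 gave Nr3c1 -0.00623, Ncoa1 -0.00453, Ncoa3 -0.13 and Hsd11b1 0.0819; the Actb ratio Ncoa3 -0.30, Crebbp 0.00815, Hsd11b1 0.11 and Pgr -0.0931; the cerebellar score Ncoa3 -0.00037 and Hsd11b1 0.13; quantile normalization Ncoa3 -0.0109; averaged probe sets Ncoa3 -0.0759. Between the knockouts, averaged probe sets gave Nr3c1 0.0948 and Ncoa2 -0.0248, and Ncoa2 was -0.00088 with the Actb ratio and -0.00029 with strong Pcp2. Between the sexes, averaged probe sets gave Nr3c1 0.0319, Ncoa1 0.0565, Ncoa2 0.0147 and Ncoa3 0.00559, quantile normalization Ncoa1 0.00293 and the Actb ratio Crebbp 5.26e-05. With 1 array left out, ranges that crossed 0 were, in ERalphaKO against wild type, Ncoa1 -0.0231 to 0.0289, Abcb1a -0.0896 to 0.0242 and Hsd11b1 -0.15 to 0.20; in ERbetaKO against wild type, Ncoa3 -0.0514 to 0.11 and Hsd11b1 -0.33 to 0.035; between the knockouts, Nr3c1 -0.0632 to 0.00647 and Nr3c2 -0.13 to 0.0646; between the sexes, Ncoa1 -0.0367 to 0.0155, Ncoa3 -0.0848 to 0.0248 and Crebbp -0.0498 to 0.0139.

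With a replicate block the 7 genes gave 0, 0 and 1 calls and the 17 probe sets 1, 2 and 2, the counts found without it. In ERbetaKO against wild type these were not the same probe sets: Nr3c1 1457635_s_at missed the threshold (0.32, limma adjusted p = 0.0525) and Nr3c1 1421866_at passed it (0.48, adjusted p = 0.0435).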
